A study of Mus musculus with 7 samples.

Results

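The clustered protocadherin genes were taken as every RefSeq gene of the mouse build GRCm38 on chromosome 18 whose symbol starts with Pcdha, Pcdhb or Pcdhg. There were 58 such genes, against 21000 coding genes with a curated transcript in the whole annotation. They fell into 14 Pcdha, 22 Pcdhb and 22 Pcdhg genes, of which 57 are annotated as coding and 1, Pcdhgb8, as a transcribed pseudogene. All 58 read in the same direction, and each has 1 curated start site. From the promoter of Pcdha1 to the end of Pcdhgc5 they span 912.6 kb at chr18:36929285-37841873.

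Clustered protocadherins are cell surface adhesion proteins, best known from the nervous system, where each neuron shows its own combination of them and so tells its own branches from those of other neurons. Each variable exon of the Pcdha and Pcdhg clusters has a promoter of its own and is spliced to a few constant exons shared by the cluster, whereas each Pcdhb gene is a single exon. Most variable exons, called alternate here, are chosen in a random-like way in single neurons, through CTCF and cohesin bringing a promoter near an enhancer, whereas the C-type exons (Pcdhac1, Pcdhac2, Pcdhgc3, Pcdhgc4 and Pcdhgc5) are used more uniformly. Of the members, 5 were thus C-type and 53 alternate.

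Open chromatin was measured by ATAC-seq, in which a transposase cuts accessible DNA, in sorted cells from the second heart field region of mouse embryos at embryonic day 9.5. From embryos of a Hoxb1-GFP reporter line, which marks the posterior second heart field and, in the hindbrain, rhombomere cells, there were 2 GFP+ libraries (replicates 3 and 4) and 2 GFP- libraries (replicates 1 and 2). From embryos carrying Mef2c-AHF-Cre and a Rosa tdTomato reporter, in which every descendant of a cell that once had Cre keeps the colour, there were 2 Tomato+ libraries (replicates 6 and 8) and 1 Tomato- library (replicate 7). Embryos were pooled before sorting, and the labels do not say whether libraries of a group came from separate pools, so that spread between them may be technical. The line and the sorted population cannot be told apart between GFP+ and Tomato+ cells.

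The deposited lists held 187914 to 291287 peaks per library, of which 64306 to 77746 had a −log10 q of at least 2, the limit used here for a called peak. Sequencing depth, worked back from the background rate of each list, ranged from 52340120 tags in Tomato+ replicate 6 to 93074895 in Tomato- replicate 7, and the fewest stacked tags in any deposited peak ranged from 6 to 9. Fold enrichment is the height of a peak over its local background. In sorted bulk cells a weak peak can stand for a region open in few cells or one slightly open in many, and the lists cannot tell these apart. Among genes that mark the region, Isl1 and Mef2c had a called promoter peak in all 7 libraries, Hoxb1 in 6, Osr1 in 4, Nkx2-5 in 2, and Tbx1 and Tbx5 in 1 each. Of 6 neural genes 4 to 6 had one in each library, of 3 endothelial genes 0 to 2, and of 3 endoderm genes 0 to 2. Foxa2 was called in 5 libraries, Tek in 4, Cdh5 and Sox17 in 1 each, and Pecam1 and Epcam in none. Whether cells of these other types took part in the protocadherin values was not tested.

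A promoter peak was any peak reaching into the window from 1000 bp upstream to 100 bp downstream of a start site. In each library only 3 to 5 of the 58 members had a called promoter peak. The count was 4 in GFP+ replicate 3 (6.90%, 95% exact binomial interval 1.91 to 16.7%), where 62.2% of all coding genes had one, and 4 in GFP+ replicate 4, where 63.3% had one. It was 3 in Tomato+ replicate 6 (5.17%, interval 1.08 to 14.4%) beside 61.0% of coding genes, and 5 in Tomato+ replicate 8 (8.62%, interval 2.86 to 19.0%) beside 61.9%. In the sort-negative libraries it was 3 in GFP- replicate 1 beside 60.8%, 5 in GFP- replicate 2 beside 61.7%, and 5 in Tomato- replicate 7 beside 63.6%. These intervals cover counting error only, and every library held the members far below the share of coding genes.

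Counting every deposited peak, however weak, raised the members to between 6 and 10 per library. There were 10 in GFP+ replicate 3, 6 in GFP+ replicate 4, 9 in Tomato+ replicate 6, 7 in Tomato+ replicate 8, 6 in GFP- replicate 1, 9 in GFP- replicate 2 and 6 in Tomato- replicate 7. The shares of coding genes in the same order were 71.3, 70.4, 69.5, 69.7, 68.7, 69.9 and 70.2%. In all, 40 of the 58 members had no deposited promoter peak in any of the 7 libraries, against 18.2% of coding genes. Without a peak anywhere were 10 of 14 Pcdha, 20 of 22 Pcdhb and 10 of 22 Pcdhg genes.

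**Figure D1:**
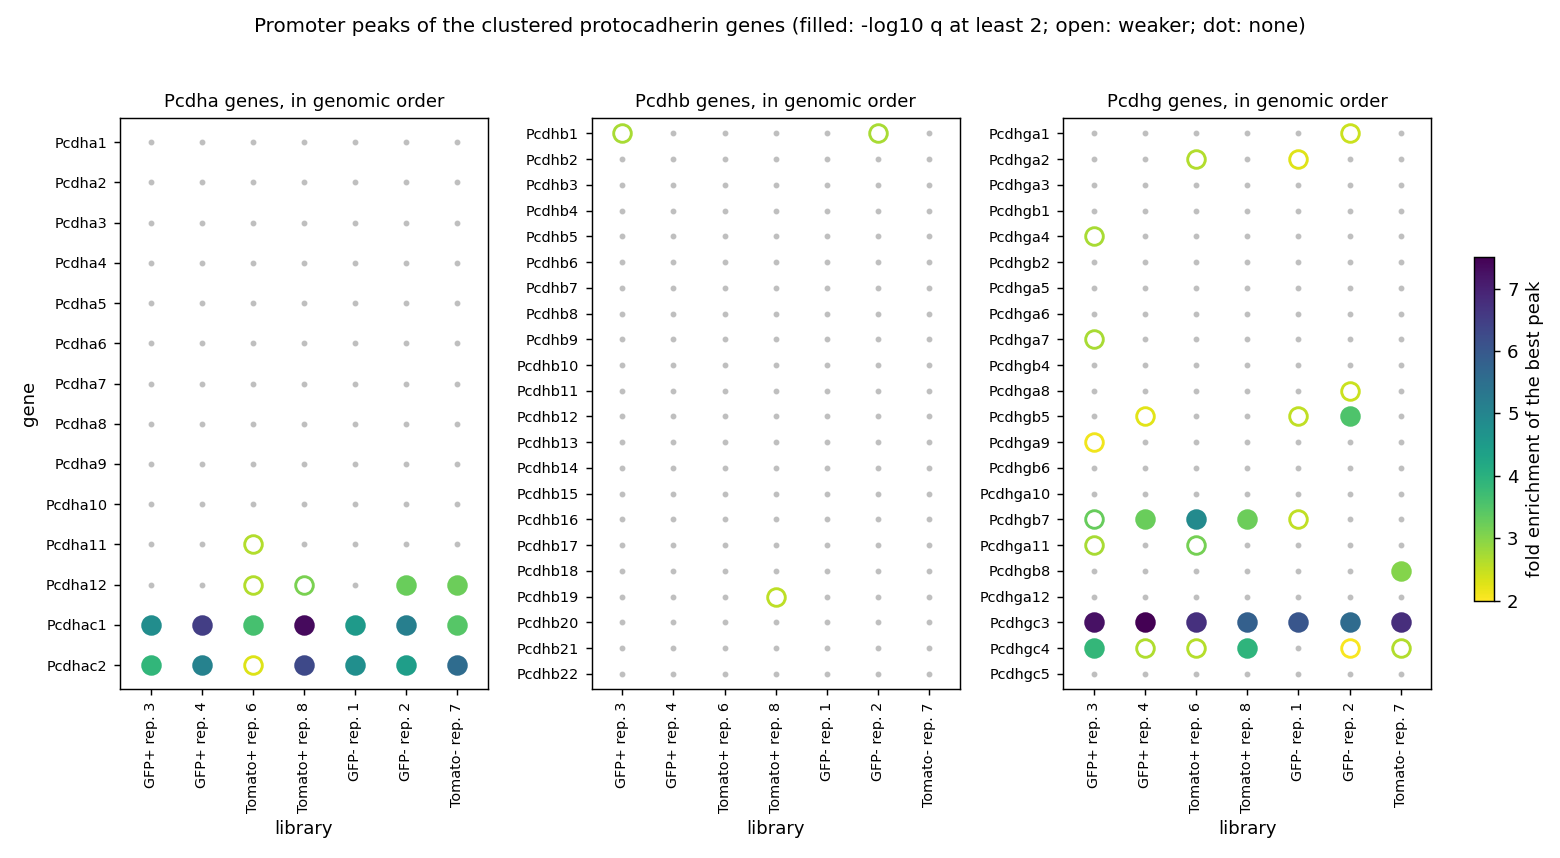
Each row is a gene in genomic order and each column a library. Filled circles are promoter peaks with −log10 q of at least 2, open circles weaker deposited peaks and dots no peak, with colour giving fold enrichment (height over local background) of the best peak. Filled circles run across all 7 libraries only for Pcdhac1 and Pcdhgc3, and the Pcdhb panel has none.

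The open promoters were mostly those of C-type genes. A called promoter peak was present in at least 1 library for 4 of the 5 C-type genes and for 4 of the 53 alternate genes. Per library the C-type genes gave 2 to 4 and the alternate genes 0 to 2. With 5 C-type genes the interval on such a share is wide, from 28.4 to 99.5% in GFP+ replicate 3, whereas 0 of 53 alternate genes in that library allows a share of up to 6.72%. None of the 22 Pcdhb genes and none of the 12 Pcdhga genes had a called promoter peak in any library.

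The windows also differed in base composition, which moves with peak calling in general. The alternate promoters held 31.2 to 44.0% G and C (median 37.6%) and the C-type promoters 46.2 to 51.8% (median 48.4%), beside a median of 50.3% over 26032 coding start sites. Of 4295 other coding genes whose promoters lie at or below the highest alternate value, 14.1 to 15.3% had a called peak per library. The alternate genes, at 0 to 3.77%, were below those as well. Repeated sequence did not cover these windows, since the 31-base words of every member promoter had a median of 1 copy in the genome and the largest share of repeated words was 28.8%, at Pcdhgb8. What part base composition has in the members' low counts was not tested.

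**Figure D2:**
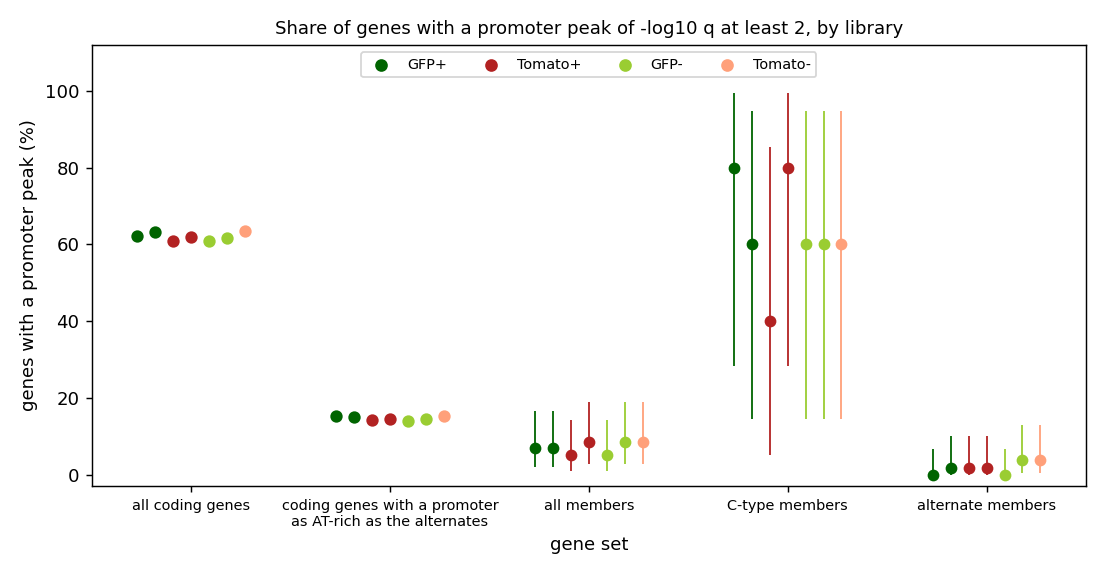
Percentage of genes with a promoter peak of −log10 q at least 2 in each library, 1 point per library coloured by group, with 95% exact binomial intervals for the member sets. All coding genes sit at 60.8 to 63.6%, coding genes with at most 44.0% G and C in the promoter at 14.1 to 15.3%, and alternate members at 0 to 3.77%.

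Pcdhgc3, the C-type gene that leads the last part of the Pcdhg cluster, had the most regular promoter peak (start site at chr18:37806410). Its fold enrichment was 7.25 and 7.49 in the GFP+ libraries, 6.74 and 5.84 in the Tomato+ libraries, 6.04 and 5.60 in the GFP- libraries and 6.79 in the Tomato- library. These values ranked it within the top 3.07 to 7.19% of all deposited peaks of each library by fold. Most of those peaks were under the limit for a called peak, so its rank among called peaks was less high. Summits lay between 106 bp upstream and 7 bp downstream of the start site, so that all 7 libraries placed the opening at the same spot. Both GFP+ values were above both GFP- values, and the Tomato+ values were both below the single Tomato- value.

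Pcdhac1 (start site at chr18:37090136) was the other member with a called promoter peak in every library. Its fold enrichment was 4.82 and 6.51 in GFP+, 3.61 and 7.36 in Tomato+, 4.53 and 5.16 in GFP-, and 3.45 in Tomato- cells. The Tomato+ libraries thus gave both nearly the lowest and the highest value, and no pair of groups with 2 libraries was separated. Its summits all lay upstream of the start site.

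Pcdhac2 (start site at chr18:37143678), one of the members known to lack the short promoter element shared by most of the family, had a deposited peak in all 7 libraries and a called one in 6. Fold enrichment was 3.88 and 5.09 in GFP+, 2.3 and 6.28 in Tomato+, 4.78 and 4.44 in GFP-, and 5.57 in Tomato- cells. Tomato+ replicate 6, the library of lowest depth, gave the weak value, at a −log10 q of 0.380. Just beyond the window this library had a stronger peak at chr18:37143840-37143928, still under the limit (fold 3.29, −log10 q of 1.83). The weak value thus holds only what reached the window. The parts of depth and of the window edge in it were not tested. In the 6 libraries with a called peak the summits lay 32 to 310 bp downstream of the start site, inside the exon and not in front of it as at Pcdhac1.

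Pcdhgc4 (start site at chr18:37815079) opened just inside its exon, at the edge of the promoter window. Reaching into the window, called peaks were present in GFP+ replicate 3 (fold 3.85) and Tomato+ replicate 8 (fold 3.91), and weaker ones in GFP+ replicate 4, Tomato+ replicate 6, GFP- replicate 2 and Tomato- replicate 7 (folds 2.06 to 2.65). The whole site at chr18:37815091-37815523 was however called in 4 libraries. Beyond the window GFP+ replicate 4 had a called peak with a fold of 4.95, the highest at this site, and Tomato- replicate 7 one with a fold of 3.72. In Tomato+ replicate 6 and both GFP- libraries the site held deposited peaks under the limit. Both GFP+ libraries were thus called and both GFP- libraries were not, while the Tomato+ libraries were split. The counts of promoter peaks above hold only what reached the window. Pcdhgc5, the last gene of the interval, had no deposited peak in its window in any library, and its nearest peak lay 169 to 3027 bp downstream. Its promoter held 48.4% G and C, within the range of the other C-type genes.

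**Figure D3:**
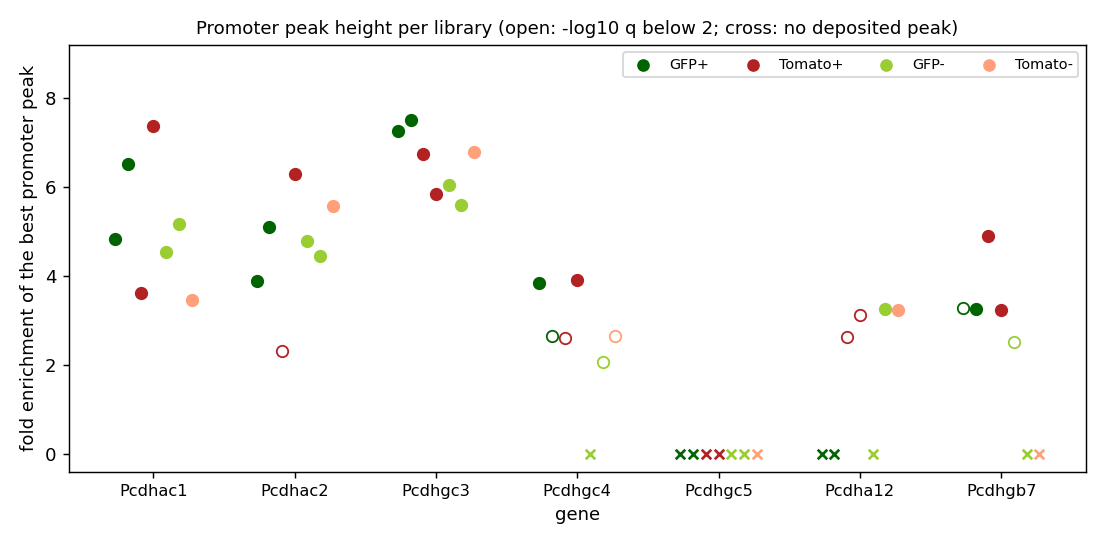
Fold enrichment of the best promoter peak, 1 point per library coloured by group, for the 5 C-type genes and the 2 alternate genes with a called peak in more than 1 library. Open points have a −log10 q below 2 and crosses on the zero line mark no deposited peak. Pcdhgc3 lies between 5.60 and 7.49, whereas Pcdhac1 and Pcdhac2 spread from 3.45 to 7.36 and from 2.3 to 6.28.

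The 4 alternate genes with a called promoter peak were Pcdha12, Pcdhgb5, Pcdhgb7 and Pcdhgb8, named here after their values were seen. Pcdhgb7 came closest to a regular pattern. Its −log10 q was 1.99 and 2.34 in GFP+, 5.97 and 2.12 in Tomato+ and 0.821 in GFP- replicate 1. No peak reached its window in GFP- replicate 2 or the Tomato- library, although GFP- replicate 2 had one beyond it (−log10 q of 0.643). The sort-positive values thus lay at or above the limit in 3 of 4 libraries and the sort-negative ones in 0 of 3, with GFP+ replicate 3 just under it. No member had a called promoter peak in all 4 sort-positive and none of the 3 sort-negative libraries, where 0.0619% of coding genes did, and none had the opposite, where 0.0286% did.

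At Pcdha12, the last alternate exon of its cluster, called peaks reached the window in GFP- replicate 2 (fold 3.26) and Tomato- replicate 7 (fold 3.24). Weaker ones did so in both Tomato+ libraries (folds 2.63 and 3.11), and none in GFP+ replicates 3 and 4 or GFP- replicate 1. Their summits lay 85 to 383 bp downstream of the start site. The whole site at chr18:37020298-37020647 was however called in 3 libraries. Beyond the window Tomato+ replicate 6 had a called peak with a fold of 4.27, the highest at this site. GFP- replicate 1 (fold 3.02) and GFP+ replicate 3 (fold 2.41) had peaks under the limit there, and GFP+ replicate 4 had none. Pcdhgb5 was called in GFP- replicate 2 alone (fold 3.53) and Pcdhgb8 in the Tomato- library alone (fold 3.02). A further 10 alternate genes had only peaks below the limit, in 1 or 2 libraries each, with folds of 2.11 to 3.15. Among them were Pcdhb1 and Pcdhga1, the genes that open their clusters. Pcdha1 and Pcdhb22, which open the Pcdha and close the Pcdhb cluster, had none, and their nearest peaks lay at least 1209 and 1454 bp away.

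GFP+ and Tomato+ cells, the posterior and the anterior sorts, had the same mean number of members with a called promoter peak. The counts were 4 and 4 against 3 and 5, a difference in means of 0 (exact two-sided permutation p = 1, where 2 against 2 libraries cannot go below 0.333). No member was called in both GFP+ and neither Tomato+ library, a pattern that 0.681% of coding genes had, and none the other way round, which 0.452% had. GFP+ and GFP- cells of 1 line also had equal means, with 4 and 4 against 3 and 5 (exact permutation p = 1), and no member was called in both libraries of 1 group and neither of the other, where 0.852% of coding genes were called only in GFP+ and 0.362% only in GFP- cells. The 4 sort-positive libraries had on average 0.333 fewer members than the 3 sort-negative ones (means 4 and 4.33, exact two-sided permutation p = 0.914, smallest possible 0.0571). So few members had a peak that these designs could show little, and equal means do not show that the populations were alike.

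In all 7 libraries 2 of the 58 members had a called promoter peak, Pcdhac1 and Pcdhgc3, where 53.0% of coding genes had one. Without Tomato+ replicate 6 there were 3, the third being Pcdhac2.

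The 11 genes for CTCF, cohesin and silencing factors known to act on the clusters (Ctcf, Rad21, Smc1a, Smc3, Stag1, Stag2, Nipbl, Wapl, Smchd1, Dnmt3b and Setdb1) all had called promoter peaks in all 7 libraries. Of 12 protocadherin genes outside the clusters 7 to 11 were called per library, and 7 of them (Pcdh8, Pcdh9, Pcdh10, Pcdh11x, Pcdh17, Pcdh18 and Pcdh19) in every library. Of the 10 nearest coding genes upstream 6 to 8 were called, and of the 10 downstream 7 to 10. Of the 5 non-member coding genes inside the interval 1, Taf7, which encodes a subunit of the general transcription factor TFIID, was called in all 7 libraries, and Slc25a2, a mitochondrial carrier, was called in none. Gm37013, Gm38666 and Gm38667, read-through genes that start beside Pcdha4, Pcdha6 and Pcdha7, had no deposited promoter peak in any library. The genes on either side of the interval and those for its regulators were thus called more often than the members. Of all coding genes 60.8 to 63.6% were called per library, beside 60 to 80% of the upstream and 70 to 100% of the downstream genes. Inside the interval the read-through genes start beside members and add little to the members' own counts, while Taf7 was called and Slc25a2 was not.

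Outside the promoter windows the interval held 16 to 31 called peaks per library, a density of 1.89 to 3.65 per 100 kb over 848.7 kb, beside 2.43 to 2.94 per 100 kb over the genome. It was below the genome density of the same library in 4 libraries (2.24 against 2.73 in GFP+ replicate 3, 1.89 against 2.43 in Tomato+ replicate 8, and 1.89 against 2.46 and 2.36 against 2.65 in GFP- replicates 1 and 2). It was above it in 3, with 2.71 against 2.68 in GFP+ replicate 4, 3.18 against 2.69 in Tomato+ replicate 6 and 3.65 against 2.94 in the Tomato- library, which was the deepest. The parts of the interval differed. With promoter windows included, called peaks per 100 kb were 1.32 to 2.64 over the Pcdha variable exons and 1.55 to 3.50 over the Pcdhb genes. Over the Pcdhg variable exons they were 2.44 to 8.52. The stretches of constant exons are short, with 3.05 to 6.11 for Pcdha and 0 to 35.6 for Pcdhg, where 16.85 kb held 0 to 6 called peaks. Between Pcdha and Pcdhb the density was 0 to 2.66, and between Pcdhb and Pcdhg 1.44 to 2.87. Merged over libraries the called peaks gave 76 sites, of which 8 touched a member promoter and 68 did not, and of the latter 41 were called in 1 library alone and 6 in all 7. The same shares over merged sites of the whole genome were not counted.

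The strongest of the 6 was the Taf7 promoter at chr18:37644003-37644543, between the Pcdhb and Pcdhg clusters. Another lay inside the Pcdha cluster, at chr18:37178260-37178817 in the intron between constant exons 2 and 3, an intron in which a long-range enhancer of the Pcdha genes is known. Its fold enrichment was 4.52 and 4.25 in GFP+, 3.61 and 6.23 in Tomato+, 4.28 and 4.34 in GFP-, and 4.53 in Tomato- cells, so that 6 of the 7 values fell between 3.61 and 4.53. Its sequence had no repeated 31-base words. Whether this peak is that enhancer was not tested.

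A second stretch known to hold an enhancer of the Pcdha genes lies between the last Pcdha exon and Pcdhb1. There a site at chr18:37218059-37218454, 29.2 kb beyond the Pcdha genes and 46.5 kb before Pcdhb1, was called in 5 libraries. Its fold was 4.25 in GFP+ replicate 4, 3.96 in Tomato+ replicate 8, 3.78 and 4.88 in GFP- and 4.53 in Tomato- cells. GFP+ replicate 3 and Tomato+ replicate 6 had no deposited peak there, so the absences cut across the sorted populations. These libraries had the fewest tags of all 7 but the most deposited peaks (291287 and 248015). The part of depth in the absences was not tested.

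The other 4 sites called in every library lay among or beyond the Pcdhb genes. A pair between Pcdhb1 and Pcdhb2, at chr18:37274366-37274573 and chr18:37274906-37275112, had folds of 3.94 to 8.20 and 4.22 to 7.99, highest in both cases in the Tomato- library. A site between Pcdhb8 and Pcdhb9, at chr18:37386333-37386788, had folds of 5.70 to 8.85. Of its 31-base words 57.5% occur more than once in the genome, and the share was 29.3 and 44.9% for the pair. The site beyond Pcdhb22, at chr18:37541535-37541657, consisted of repeated sequence with a median of 10 copies. Reads from copies of such sequence may be placed here, and their part in these peaks was not tested.

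**Figure D4:**
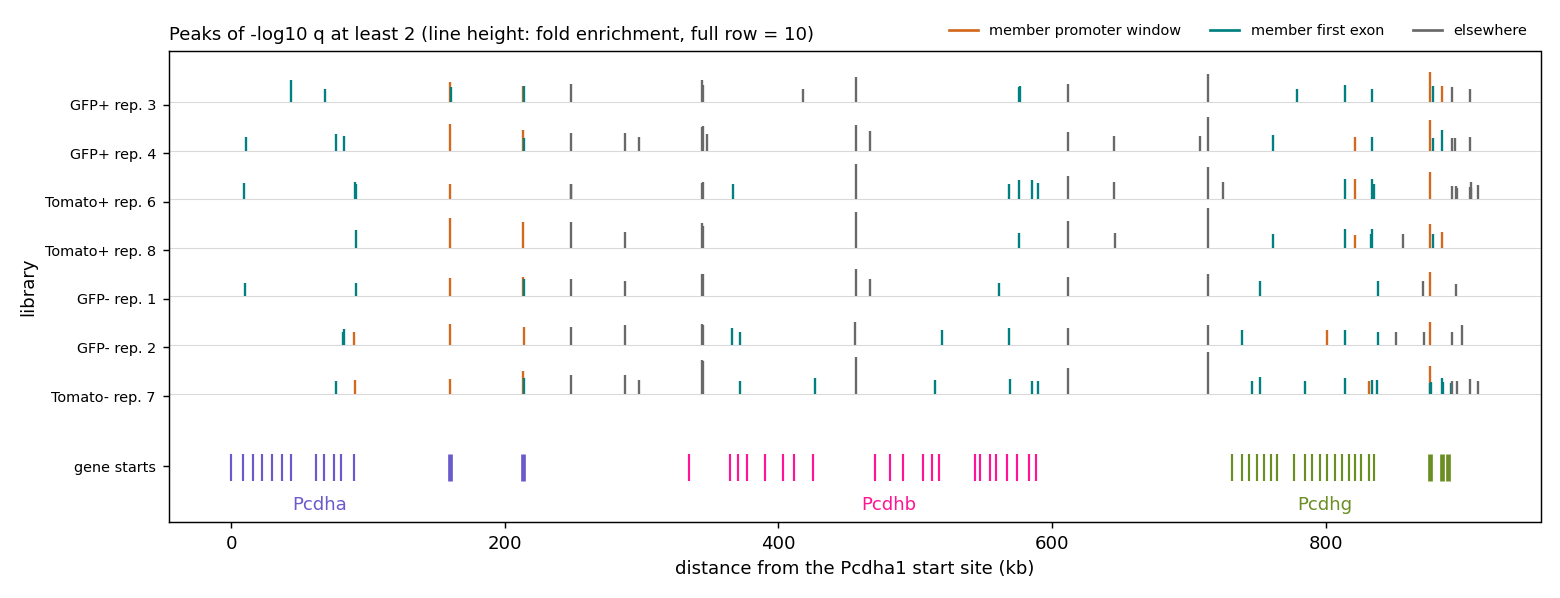
Peaks with −log10 q of at least 2 along the interval, by distance from the Pcdha1 start site in kb and by library; line height is fold enrichment (a full row is 10) and the lowest row marks gene starts, C-type genes in thick lines. Lines that align through all rows include the promoters of Pcdhac1 and Pcdhgc3 and the sites near 248, 344, 456, 611 and 714 kb, while the alternate gene starts stand mostly without lines.

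Summits at alternate genes were more frequent inside the exon than before its start, although some lay close to the start, such as the called Pcdhgb8 peak 23 bp upstream of it. Over bins of 500 bp, 0 to 1 of the 53 alternate genes had the summit of any deposited peak in the outermost upstream bin and 0 to 2 in the 500 bp before the start site. In the 500 bp after it there were 2 to 10, and in the bin from 1500 to 1999 bp 6 to 20 per library. In that bin the counts were 14 and 18 in GFP+, 20 and 14 in Tomato+, 6 and 18 in GFP- and 19 in Tomato- cells, so that GFP- replicate 1 stood below the others. Over all libraries 41 of the 53 genes had a summit there at least once, against 4 in the 500 bp upstream. With called peaks alone the counts in that bin were 2 to 9 per library.

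Base composition and sequence repeats moved along with this profile. Median G and C was 36.6% in the 500 bp upstream, 54.0% in the 500 bp downstream and 59.4% at 1500 to 1999 bp. The median share of 31-base words found more than once in the genome was 0% in the 500 bp upstream and 30.8% at 1500 to 1999 bp. Of the 40 called sites in member exons outside promoter windows, 14 had a median of more than 1 copy. Single sites were at times regular even so: one inside Pcdhgb6, at chr18:37743649-37744236, was called in 5 libraries with folds of 3.53 to 4.93, but 64.3% of its words were repeated. One inside Pcdhga12, at chr18:37767760-37768396, had only 0.471% repeated words and was called in the 3 sort-negative libraries (folds 3.78, 3.26 and 3.24) and in no sort-positive one. GFP+ replicate 3 had a peak of fold 3.26 there too, which missed the limit narrowly (−log10 q of 1.97), GFP+ replicate 4 and Tomato+ replicate 6 had peaks under the limit, and Tomato+ replicate 8 had none. One inside Pcdha12, at chr18:37021549-37021902, was the only site of the 76 called in both Tomato+ libraries (folds 3.61 and 4.25) and in neither GFP+ library. It was called in GFP- replicate 1 as well, both GFP+ libraries had peaks under the limit there, and 70.3% of its words were repeated. The parts of base composition and of repeated sequence were not tested. How many sites of the whole genome show such patterns across libraries was not counted.

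**Figure D5:**
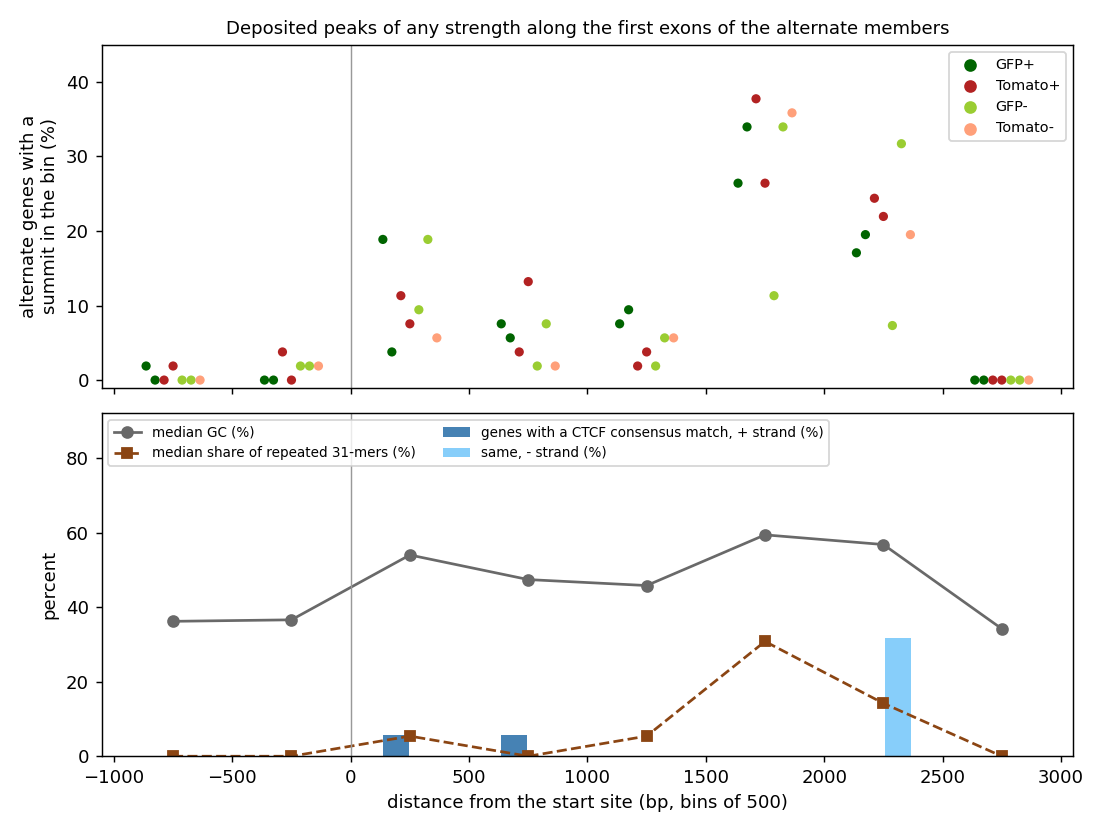
Upper panel, percentage of alternate genes with a summit of any deposited peak in each 500 bp bin from the start site, 1 point per library. Lower panel, for the same bins, median G and C, median share of repeated 31-base words, and percentage of genes with a match to the CTCF consensus on either strand. Summits are most frequent at 1500 to 1999 bp, where G and C (59.4%) and repeated words (30.8%) are also highest.

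Since CTCF is known to bind at these exons, its consensus was searched on both strands with no mismatch allowed. None of the 58 members had a match from 250 bp upstream to 50 bp downstream of the start site, where 0.588% of 26032 coding start sites had one. At so low a share, none among 58 says little about the members. The exact consensus is strict: 2.11% of called peaks in GFP+ replicate 4 held a match within 150 bp of the summit. In the whole interval there were 20 matches, 21.9 per Mb beside 4.96 per Mb in the genome, and 19 of them lay in first exons. In 6 Pcdha genes (Pcdha1, Pcdha4, Pcdha6, Pcdha7, Pcdha8 and Pcdha12) the match lay 456 to 587 bp after the start site, in each case on the strand of the gene. In 13 Pcdhb genes it lay 2254 to 2427 bp after the start site and always on the opposite strand. Within each cluster these matches lay at nearly the same place in related exons. They are therefore not independent sites to set beside the genome density. The 1 match outside the exons, at chr18:37217468-37217479, was on the opposite strand too, 580 bp before the site beyond the Pcdha genes described above. No alternate Pcdhg or C-type exon had a match.

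A deposited peak of any strength lay within 200 bp of 9 of the 20 matches (45%) in at least 1 library, and a called one at 4 (20%). Over all 13119 matches of the genome the shares were 53.9 and 31.5%, so the shares here were lower by a few matches, and no test was made. At Pcdha12 a peak was near in 5 libraries and called in 2, at Pcdhb20 in 2 and 1, at Pcdhb21 in 3 and 1, and at Pcdha7 in GFP+ replicate 3 alone (fold 5.42). The other 4 Pcdha matches and 7 of the 13 Pcdhb matches had no deposited peak near them in any library. A match describes letters only, and no binding was measured.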

How the data were processed

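Cells were sorted from second heart field tissue, and ATAC-seq libraries were made per sorted population. The authors aligned reads to GRCm38 with SNAP, kept properly paired primary reads, removed duplicates and blacklisted regions, and called narrow peaks per library with MACS2 (2.1.1 in the study's methods and the submitters' processing notes; the only list with a header, Tomato+ replicate 6, names 2.1.0.20150731, a p limit of 0.01, shift 37, extension 73 and no control, under a run name that speaks of another reporter). A filter on mapping quality is not given in the sources used here. This shift runs toward the 3′ end of each read, so that pileup lies inside the fragment and is not centred on the cut. The deposited columns are pileup (a coverage signal in tags), fold enrichment (a ratio to local background) and −log10 p-value and −log10 q-value.

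Rows of 1 peak with several summits were collapsed to the summit of smallest p. Tags per library were worked back from pileup, fold, extension and an effective genome of 1870000000 bases. Start sites came from RefSeq curated transcripts of GRCm38.p6, with 1 shared bp as overlap. Copies of 31-base words were counted over the chromosomes, in steps of 5 bp for promoters. Python 3.11.15, pandas 2.3.3, scipy 1.17.1 and numba 0.67.0 were used, and the counting steps were tested on simulated data. Shares have exact binomial intervals, and differences in counts an exact permutation test over libraries. Lists were described by counts alone, and 1 gene of the neural list is not reported here.

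The members, gene lists, CTCF search and limits were chosen with earlier results of these data known. Genes named were the C-type genes, members called in all 7 libraries or in both libraries of 1 population and neither of the other, the outermost genes of each cluster, and the 6 distal sites called in most libraries (ties by median rank on fold). Pcdha12, Pcdhgb5, Pcdhgb7, Pcdhgb8, the site beyond the Pcdha genes and the exon sites were chosen after their values were seen. Alternatives were any deposited peak, −log10 q of at least 4, the 50000 peaks of smallest p, a window of 500 bp on either side, summits in the window, predicted transcripts, and each library left out.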

Additional observations from a re-analysis of the deposited data

Results flagged for a closer look

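At 2 places the GFP line and the Tomato line differed between sort-positive and sort-negative cells in opposite directions, with every library of a group on 1 side. At the Pcdhgc3 promoter the mean fold enrichment was higher by 1.56 in GFP+ than in GFP- cells, whereas in the Tomato line the sort-positive mean was lower (Tomato+ minus Tomato- of -0.501). At the Taf7 promoter between the Pcdhb and Pcdhg clusters the difference was 2.38 in the GFP line and -1.64 in the Tomato line. The difference between the lines was not tested, the Tomato- group is 1 library, and that library had the most tags (93074895).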

How the results depend on the processing

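Counts per library were small, and 1 gene could move them. With any deposited peak the members with a promoter peak were 10, 9, 6 and 9 in GFP+ replicate 3, Tomato+ replicate 6, GFP- replicate 1 and GFP- replicate 2. With −log10 q of at least 4 they were 2, 3 and 2 in GFP+ replicate 3, GFP- replicate 2 and Tomato- replicate 7, and with the 50000 peaks of smallest p 3 in Tomato- replicate 7. With summits in the window they were 2 in both GFP+ libraries and in Tomato+ replicate 8, and 3 in GFP- replicate 2 and Tomato- replicate 7. With 500 bp on either side there were 3 to 7 per library, with 6 in Tomato+ replicate 6 and GFP- replicate 2 and 7 in Tomato- replicate 7. Under that window 8 alternate genes were called in at least 1 library, beside 4 with the main window. Per library these were 0 to 4, beside 0 to 2 with the main window. The members called in all 7 libraries were 1 with −log10 q of at least 4 and 1 with equal list lengths, and 2 to 3 with a library left out. Called in both Tomato+ and neither GFP+ library was 1 member with any deposited peak. With a library left out this count and its opposite ranged from 0 to 1 (the first without GFP+ replicate 4, the second without Tomato+ replicate 8). Of the alternatives, shares of all coding genes are given above only for any deposited peak per library. For the other settings, and for the patterns across libraries under any alternative, they were not counted. Whether the members moved more than other genes was therefore not tested.

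The difference GFP+ minus Tomato+ was -0.5 with −log10 q of at least 4, 0.5 with equal list lengths and -1 with 500 bp on either side, and -1 to 1 with a library left out. GFP+ minus GFP- was 0.5 with any peak, -0.5 with −log10 q of at least 4 and -1 with summits in the window, and -1 to 1 with a library left out. Sort-positive minus sort-negative turned to 1 with any peak and to 0.0833 with −log10 q of at least 4, and ranged from -1 to 0 with a library left out. With summits in the window it was -1, with 2 members in each sort-positive and 3 in each sort-negative library (exact permutation p = 0.0571, the smallest this design can give). The third member was a different gene each time: Pcdhac2 in GFP- replicate 1, Pcdhgb5 in GFP- replicate 2 and Pcdhgb8 in the Tomato- library. Pcdhac2 was also called in GFP+ replicates 3 and 4 and Tomato+ replicate 8. There its summits lay 115, 293 and 159 bp downstream of the start site, past the window edge at 100 bp. No gene thus separated the sort-positive from the sort-negative libraries under this setting. The cause of the difference was not tested. With 1 library left in a group, differences are values with no test.

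Peaks outside the promoter windows numbered 75, 68, 82, 59, 39, 75 and 70 with any deposited peak (GFP+ replicates 3 and 4, Tomato+ 6 and 8, GFP- 1 and 2, Tomato- 7), and 10, 11, 11, 9, 8, 10 and 12 with −log10 q of at least 4. With equal list lengths the Tomato- library had 17. The C-type genes exceeded the alternate ones as a share in every library under all 6 alternatives. Predicted transcripts changed no count. No paired analysis was possible because no replicate number is shared by 2 libraries.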
